A study of Mus musculus with 12 samples.

Results

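This account covers 9 genes that carry hexoses across the gut lining, break down fructose or make glucose. They are the sugar carriers Slc5a1, Slc2a2 and Slc2a5, the fructose enzymes Khk and Tkfc, the gluconeogenesis enzymes Pck1, Fbp1 and G6pc, and the sugar-responsive transcription factor gene Mlxipl. The genes were chosen by name, and all 9 were among the 6429 genes present in both tables of comparisons. The occupancy of RNA polymerase II (Pol II), the enzyme that transcribes these genes, was read by ChIP-seq, in which DNA bound by a protein is pulled down with an antibody and sequenced. The tissue was epithelium of mouse duodenum, where the small intestine begins. The labels list 12 samples, of which 9 are Pol II libraries and 3 are input libraries.

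The 3 groups had 3 Pol II libraries each. They were villus cells and crypt cells of adult wild-type (WT) mice given oil vehicle, which held ethanol and corn oil without tamoxifen, and villus cells of adult mice of genotype Hnf4{alpha}{gamma} DKO, a double knockout of the transcription factors HNF4A and HNF4G. The knockout mice received tamoxifen at 50 mg/kg per day for 2 days and were killed 1 day after the last dose. The strain, the deleted exons, the driver of recombination and any pooling of animals are not given in the sources used here. Epithelium was released with EDTA for 35 min from WT tissue and for 25 min from mutant tissue, so genotype, tamoxifen and EDTA time varied together and cannot be told apart. Villi were held back by a 70 µm filter that let the smaller crypts through. Nothing in the labels says that libraries of a group came from separate mice, so the errors below may be technical in part.

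Dietary sugar reaches the enterocyte, the absorptive cell of the villus, as glucose, galactose and fructose. Glucose and galactose enter with sodium through SGLT1, the product of Slc5a1, fructose enters through GLUT5, the product of Slc2a5, and all leave toward the blood through GLUT2, the product of Slc2a2. Inside the cell, ketohexokinase (Khk) phosphorylates fructose, the product is split, and triokinase (Tkfc) phosphorylates the glyceraldehyde that results. PEPCK (Pck1), fructose bisphosphatase (Fbp1) and glucose-6-phosphatase (G6pc) carry out the steps of gluconeogenesis that glycolysis cannot run in reverse, and the small intestine is known to hold all of them. ChREBP, the product of Mlxipl, is a transcription factor that responds to sugar and acts with its partner MLX on genes of fructose breakdown and fat synthesis.

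The bases before the start of 6 of these genes are shown because they differ in matches to an HNF4-type motif. Each line is the 250 bases before the start in the RefSeq promoter table of build GRCm38.p6, 5′ to 3′ on the gene's strand. Capitals mark a match to CAAAGNNCA (a short HNF4-type motif), TATAAA (the TATA box) or CACGTG (the E box that ChREBP sites are built from), on either strand.
Slc5a1: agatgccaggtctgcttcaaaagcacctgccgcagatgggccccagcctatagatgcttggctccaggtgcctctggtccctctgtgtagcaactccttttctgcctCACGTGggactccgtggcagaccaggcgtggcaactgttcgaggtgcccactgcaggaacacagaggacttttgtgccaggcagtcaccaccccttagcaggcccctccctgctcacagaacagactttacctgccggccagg
Pck1: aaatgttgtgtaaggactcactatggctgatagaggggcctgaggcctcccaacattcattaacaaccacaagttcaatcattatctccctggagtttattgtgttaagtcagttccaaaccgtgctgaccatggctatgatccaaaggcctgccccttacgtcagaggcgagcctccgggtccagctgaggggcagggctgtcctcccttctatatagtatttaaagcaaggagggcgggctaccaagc
G6pc: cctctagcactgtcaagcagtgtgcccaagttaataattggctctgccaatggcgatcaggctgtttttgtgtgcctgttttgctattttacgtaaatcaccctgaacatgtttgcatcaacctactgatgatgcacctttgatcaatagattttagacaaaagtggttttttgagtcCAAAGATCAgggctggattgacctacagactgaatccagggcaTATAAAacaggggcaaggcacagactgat
Khk: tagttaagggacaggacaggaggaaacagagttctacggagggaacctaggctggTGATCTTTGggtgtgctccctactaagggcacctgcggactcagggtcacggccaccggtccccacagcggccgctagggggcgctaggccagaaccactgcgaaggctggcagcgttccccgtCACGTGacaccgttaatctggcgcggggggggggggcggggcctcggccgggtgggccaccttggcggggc
Tkfc: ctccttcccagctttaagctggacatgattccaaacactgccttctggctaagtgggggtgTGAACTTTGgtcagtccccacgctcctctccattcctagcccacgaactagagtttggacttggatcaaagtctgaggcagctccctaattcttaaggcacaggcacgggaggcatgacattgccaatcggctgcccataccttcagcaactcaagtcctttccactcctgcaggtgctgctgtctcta
Mlxipl: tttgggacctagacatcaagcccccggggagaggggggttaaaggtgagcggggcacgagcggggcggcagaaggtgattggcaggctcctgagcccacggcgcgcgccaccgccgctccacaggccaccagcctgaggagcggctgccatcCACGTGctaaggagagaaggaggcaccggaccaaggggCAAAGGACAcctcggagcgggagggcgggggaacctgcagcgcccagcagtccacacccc
These stretches lie at chr5:33103969-33104218 (+) for Slc5a1, chr2:173152823-173153072 (+) for Pck1 and chr11:101367466-101367715 (+) for G6pc. Those of Khk, Tkfc and the upstream promoter of Mlxipl lie at chr5:30921309-30921558 (+), chr19:10604259-10604508 (-) and chr5:135089640-135089889 (+).

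The 9 genes had 10 promoters in that table, since Mlxipl has 2. CAAAGNNCA was found in 4 of the 10, those of Khk, Tkfc, G6pc and the upstream promoter of Mlxipl, against 5.49% of all 32851 promoters of the same length. In G6pc the match CAAAGATCA lay 64 to 72 bases before the start, and a TATAAA lay at 24 to 29 bases. Khk had the same letters on the other strand, 187 to 195 bases before the start, and Tkfc had CAAAGTTCA on the other strand at 181 to 189 bases. The 2 fuller forms CAAAGTCCA and CAAAGGTCA, which are contained in CAAAGNNCA, were in none of the 10 and in 0.384% and 0.426% of all promoters. CACGTG was found in 3 of the 10 (Slc5a1, Khk and the upstream promoter of Mlxipl) and in 6.02% of all promoters, and TATAAA was found in G6pc alone and in 12.4% of all. The pair of CACGTG boxes with 5 bases between them that ChREBP is known to bind was in 0 of the 32851 promoters in its exact form. A match describes these letters and is not a measured binding site. The promoters also differed in base composition, from 43.2% G and C with 2 CpG in G6pc to 69.2% with 18 CpG in the upstream promoter of Mlxipl, against medians of 52.4% and 6 over all promoters.

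In the coordinates of the deposited files, which the submitters' processing notes give as mm9, 3 of the genes lay on chromosome 5. These were Slc5a1 (33446768 to 33504848), Khk (31223832 to 31233121) and Mlxipl (135565660 to 135613571). Slc2a2 lay on chromosome 3 (28596725 to 28626782), Slc2a5 on chromosome 4 (149493353 to 149517777), Tkfc on chromosome 19 (10666187 to 10679098), Fbp1 on chromosome 13 (62965613 to 62989992) and G6pc on chromosome 11 (101228930 to 101238717). Pck1 (172978474 to 172984275) lay on chromosome 2, with its window starting 9645981 bases from that of Hnf4a. The windows of these 9 genes covered 16 transcripts. Khk had 4 with identical windows, so isoforms of Khk cannot be told apart. Mlxipl had 5 from 2 starts, 1 from the upstream start and 4 from the downstream start. No window of the 9 genes overlapped a window of another gene, which held for 3761 of the 6392 tested genes with windows. The closest were Emilin1, 685 bases from Khk, and Ddb1, 888 bases from Tkfc on the opposite strand. In the authors' deposited table the change of WT over labelled-DKO villus was 0.25 ± 0.19 at Emilin1 (adjusted p 0.276) and -0.24 ± 0.09 at Ddb1 (adjusted p 0.0146).

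Values per library are not used here, because the columns of the count files carry no sample names. A level below is a group mean rebuilt from the deposited mean over all libraries and the 2 deposited fold changes, in size-factor-normalised counts, assuming groups of equal size. A value after ± is the deposited standard error on the log2 scale, and a 95% interval is the estimate with 1.96 such errors on each side. A gene was called when its DESeq2 adjusted p was under 0.05. The mean signal of the 9 genes ran from 96.8 to 2541, against 13.1 to 6634 with a median of 144 over all genes. The window behind these values is not stated, so levels are compared between groups and not between genes.

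At Hnf4a and Hnf4g, the genes named in the knockout label, the authors' deposited table of WT over labelled-DKO villus gave -0.54 ± 0.14 (adjusted p 4.84e-04) and -1.45 ± 0.22 (adjusted p 7.81e-10), so Pol II signal was higher in the libraries labelled DKO. Pol II over a gene need not fall when exons are deleted, and these values do not check the label. Directions between genotypes therefore rest on the table's name, and a check of its sign from the standard errors is given with the processing. The cell labels were read against markers. Of 15 enterocyte markers 13 were tested, and in the authors' deposited tables all 13 were higher in WT villus than crypt, and all 13 were also higher in WT when the genotypes were compared, with changes of 0.86 to 2.11 and 0.49 to 3.87. The 3 crypt stem cell markers tested of 10, and the 2 proliferation markers tested of 10, were higher in crypt. Between genotypes both proliferation markers and 1 of the 3 stem cell markers were higher in labelled-DKO villus. The deposited table values were -0.62 ± 0.20 at Pcna, -0.74 ± 0.18 at Ccnd1 and -0.67 ± 0.18 at the stem cell marker Myc. The other 2 stem cell markers were not called and lay on opposite sides of no change. Axin2 was at -0.38 ± 0.17 (adjusted p 0.0531) and Sox9 at 0.26 ± 0.19 (adjusted p 0.251) in the deposited table. Of 13 secretory markers 8 were tested, of which the deposited tables called 4 higher in villus and 2 in crypt. In villus, 3 of the 8 were higher in labelled-DKO mice than in WT. The background for these marker counts was 18.6% of all genes called higher in villus and 18.8% in crypt. For the genotypes it was 22.4% called higher in WT and 29.5% in labelled-DKO villus. Of 10 immune markers 2 were tested, and 1 (Cd74) was higher in villus and in WT. The other, Gzma, was called in neither deposited table. It was at 0.19 ± 0.20 for villus over crypt (adjusted p 0.488) and -0.23 ± 0.19 for WT over labelled-DKO villus (adjusted p 0.328). No mesenchyme, liver or pancreas marker was among the genes tested. The part of cell makeup in the results below was not tested, and fewer enterocytes cannot be told apart from less Pol II per enterocyte.

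The uptake genes carried more Pol II in WT villus than in crypt and less in labelled-DKO villus than in WT villus. The estimate of what remained was higher at Slc2a2 than at Slc5a1 and Slc2a5. At Slc5a1, the rebuilt level was 5083 in WT villus, 1500 in WT crypt and 1039 in labelled-DKO villus. The authors' deposited tables gave 1.76 ± 0.18 for villus over crypt (adjusted p 1.33e-19) and 2.29 ± 0.18 for WT over labelled-DKO villus (adjusted p 1.23e-33). Labelled-DKO villus thus held 20.4% of the WT villus signal (95% interval 15.9 to 26.3). At the fructose carrier gene Slc2a5, the level was 369 in WT villus, 163 in crypt and 101 in labelled-DKO villus. The deposited tables gave changes of 1.18 ± 0.22 (adjusted p 6.30e-07) and 1.87 ± 0.22 (adjusted p 1.19e-16). Crypt held 44.1% of the WT villus signal (32.9 to 59.2) and labelled-DKO villus 27.3% (20.4 to 36.7).

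At Slc2a2, the gene of the basolateral exit carrier, the estimate for labelled-DKO villus lay above that for crypt, a difference that was not called (adjusted p 0.202, Wald test with Benjamini-Hochberg adjustment), as the opposite order at Slc5a1 and Slc2a5 was not (adjusted p 0.183 and 0.123). The level was 998 in WT villus, 351 in crypt and 550 in labelled-DKO villus. In the authors' deposited tables the villus over crypt change of 1.51 ± 0.23 (adjusted p 2.76e-09) lay between those of the 2 apical carriers, while the WT over labelled-DKO change was 0.86 ± 0.23 (adjusted p 7.94e-04). Labelled-DKO villus kept 55.1% of the WT villus signal (40.1 to 75.7), an interval that does not overlap those of Slc5a1 and Slc2a5. Differences between genes were not tested, because the genes share libraries and the correlation of their errors is not known.

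**Figure D1:**
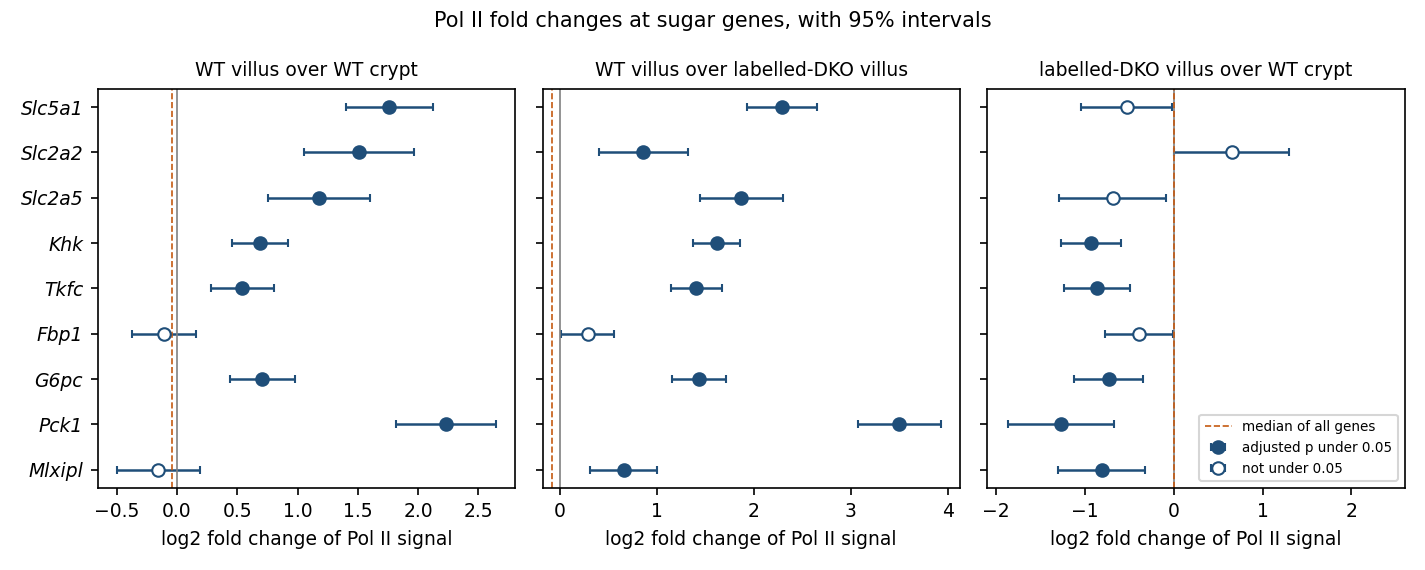
Log2 fold changes of Pol II signal at the 9 genes for WT villus over WT crypt, WT villus over labelled-DKO villus and labelled-DKO villus over WT crypt; points are estimates, bars 95% intervals, filled points have an adjusted p under 0.05 and the dashed line is the median of all 6429 genes. In the middle panel all 9 estimates lie above 0, from 0.28 at Fbp1 to 3.50 at Pck1, and in the right panel Slc2a2 alone lies above 0.

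Of the other SLC2 and SLC5 family genes 9 of 16 were tested. In the authors' deposited tables, villus exceeded crypt at 4 and crypt exceeded villus at none, while between genotypes 6 were higher in WT and 1 in the knockout libraries. Of all genes, 18.6% were called higher in villus and 18.8% in crypt, and 22.4% were called higher in WT and 29.5% in labelled-DKO villus. Slc2a7, whose windows lie 5118 bases from those of Slc2a5 and which codes for a related hexose carrier, changed most among them in the deposited tables, at 1.70 ± 0.14 and 2.67 ± 0.15, and kept 15.7% of its WT villus signal. Slc5a4a, of the SGLT3 group, was at 0.81 ± 0.11 and 1.29 ± 0.11 in the same deposited tables, and Slc5a11, a sodium-coupled inositol carrier, at 0.52 ± 0.11 and 1.37 ± 0.12. Slc5a9, Slc5a4b and Slc2a9, also called higher in WT, kept 64.3%, 70.2% and 73.4% of their WT villus signal. Slc5a2 and Slc5a10, which were not called between genotypes, kept 84.4% and 101%. The gene higher in labelled-DKO villus was Slc2a6, at -0.73 ± 0.20 (adjusted p 6.08e-04) in the deposited table. The median of the list was 0.31 and 0.51, against -0.04 and -0.08 for all genes. The 4 disaccharidase genes, whose enzymes release hexoses at the brush border, were all called higher in villus and all higher in WT. Labelled-DKO villus kept 18.5% of the WT villus signal at lactase (Lct), 19.2% at sucrase-isomaltase (Sis), 31.6% at trehalase (Treh) and 37.3% at maltase-glucoamylase (Mgam). Of these, Sis had the largest standard error in the deposited table of WT over labelled-DKO villus, with 2.38 ± 0.38.

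Both fructose enzyme genes were higher in villus than in crypt by less than the carriers, and their labelled-DKO level lay below the crypt level. At Khk, the level was 207 in WT villus, 128 in crypt and 67.4 in labelled-DKO villus. The authors' deposited tables gave 0.69 ± 0.12 for villus over crypt (adjusted p 1.20e-07) and 1.62 ± 0.12 for WT over labelled-DKO villus (adjusted p 3.57e-37). At Tkfc, the level was 319 in WT villus, 220 in crypt and 120 in labelled-DKO villus. Its deposited table values were 0.54 ± 0.13 (adjusted p 3.16e-04) and 1.41 ± 0.14 (adjusted p 9.26e-24). Labelled-DKO villus held 32.6% of the WT villus signal at Khk (27.5 to 38.5) and 37.7% at Tkfc (31.4 to 45.3), intervals that overlap. Against changes of up to 0.5 on the log2 scale, Khk and Tkfc no longer passed between villus and crypt, with adjusted p of 1 for both, and passed between genotypes.

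Of 7 other genes listed for fructose breakdown and the polyol route, 6 were tested. The authors' deposited tables called 2 higher in villus and 1 (Adh5) higher in crypt, and between genotypes 4 were higher in WT and 1 (Aldoa) was higher in labelled-DKO villus. The crypt count of this list is near the 18.8% of all genes called higher in crypt. For villus the background was 18.6%, and between genotypes it was 22.4% and 29.5%. The list was not tested against these shares. Aldoa codes for an aldolase of glycolysis, and the deposited table gave -0.97 ± 0.23 (adjusted p 1.14e-04). Sord, whose enzyme makes fructose from sorbitol, was at 0.75 ± 0.18 between genotypes (adjusted p 1.50e-04) and at 0.25 ± 0.18 between villus and crypt (adjusted p 0.289) in the deposited tables. The median of the list was 0.14 for villus over crypt and 0.72 for WT over labelled-DKO villus.

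The gluconeogenesis enzyme genes did not behave alike. Pck1 had the largest changes of the 9 genes, G6pc had changes near those of Khk and Tkfc, and Fbp1 passed neither test. At Pck1, the level was 504 in WT villus, 107 in crypt and 44.5 in labelled-DKO villus. The authors' deposited tables gave 2.23 ± 0.21 (adjusted p 6.47e-24) and 3.50 ± 0.22 (adjusted p 1.74e-55), ranks 4 and 11 from the top of 6429 genes. Labelled-DKO villus held 8.83% of the WT villus signal (6.56 to 11.9), an 11.3-fold difference. At G6pc, the level was 147 in WT villus, 89.8 in crypt and 54.1 in labelled-DKO villus. The deposited tables gave 0.71 ± 0.14 (adjusted p 3.80e-06) and 1.44 ± 0.14 (adjusted p 1.49e-22), and labelled-DKO villus held 36.9% of the WT villus signal (30.4 to 44.8).

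At Fbp1, the level was 141 in WT villus, 152 in crypt and 116 in labelled-DKO villus. The deposited tables gave -0.11 ± 0.14 for villus over crypt (adjusted p 0.576) and 0.28 ± 0.14 for WT over labelled-DKO villus (adjusted p 0.0691). The 95% interval of the villus over crypt change, -0.38 to 0.16, leaves out changes of the size seen at G6pc. After centring on the median of all genes, the genotype difference at Fbp1 was 0.37 and passed (adjusted p 0.0186). Fbp2, the muscle-type isoenzyme gene 5502 bases away, was at 0.41 ± 0.11 (adjusted p 0.00104) between genotypes in the deposited table.

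**Figure D2:**
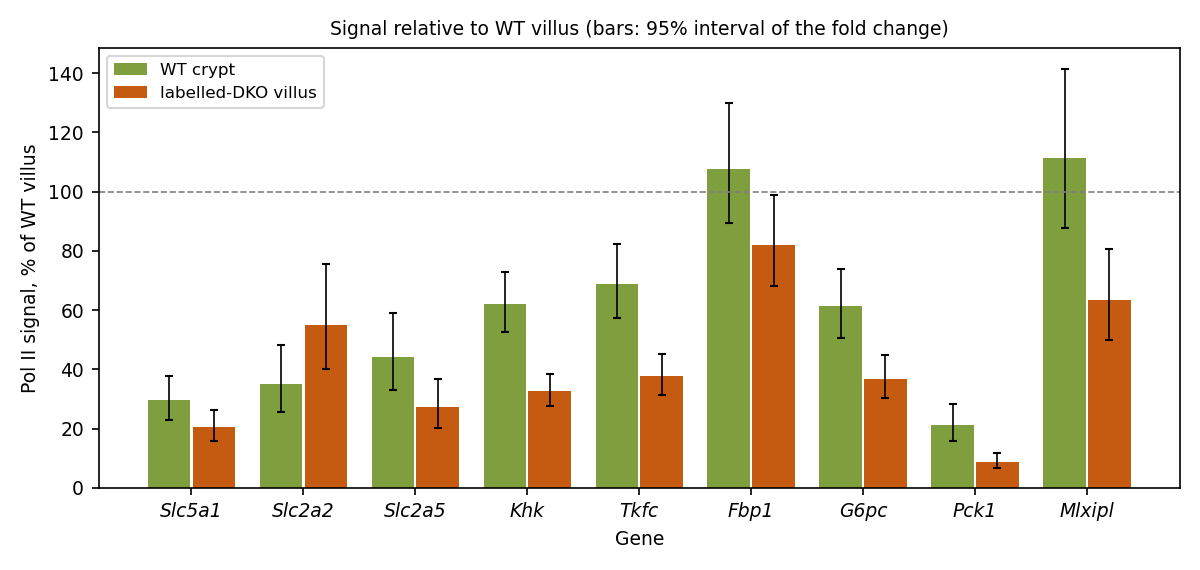
Pol II signal in WT crypt and labelled-DKO villus as a percentage of WT villus (dashed line, 100) for each of the 9 genes; bars start at 0 and error bars are 95% intervals of the fold change. The labelled-DKO bar is lowest at Pck1 (8.83%) and highest at Fbp1 (82.1%), and it is taller than the crypt bar at Slc2a2 alone (55.1% against 35.1%).

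Of 20 further genes on the routes from pyruvate, amino acids and glycerol to glucose, 16 were tested. The deposited tables called 9 higher in villus than crypt and none lower, and between genotypes 9 were higher in WT and 1 was higher in labelled-DKO villus, against 18.6% and 18.8% of all genes in the first comparison and 22.4% and 29.5% in the second. The median was 0.39 for villus over crypt and 0.40 for WT over labelled-DKO villus, against 0.71 and 1.44 for the 9 genes. Gpt, the gene of alanine aminotransferase, which turns alanine into pyruvate, changed most among them in the deposited tables, at 1.75 ± 0.14 and 2.51 ± 0.15. Gpd1 and Mdh1, of the glycerol phosphate and malate steps in the cytosol, had deposited table values of 1.31 ± 0.14 and 1.31 ± 0.11 for WT over labelled-DKO villus. Pcx, the gene of pyruvate carboxylase, which begins the route in mitochondria, was at 0.04 ± 0.10 (adjusted p 0.796) and -0.03 ± 0.10 (adjusted p 0.817) in the deposited tables. Slc37a4, the gene of the carrier that feeds glucose-6-phosphatase, was at 0.38 ± 0.19 (adjusted p 0.107) and 0.23 ± 0.19 (adjusted p 0.320) there. Gk, the gene of glycerol kinase, was the gene higher in labelled-DKO villus, at -0.62 ± 0.14 (adjusted p 5.01e-05) in the deposited table. Windows of 15 of all 50 tested pathway genes overlapped another gene, Pcx, Slc37a4, Mdh1, Gpd1, Txnip, Elovl6 and Mlx among them, and the file headers record no strand option. Over all 6392 tested genes with windows, 3761 had no such overlap.

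Mlxipl did not differ between villus and crypt beyond its error and was lower in labelled-DKO villus. The level was 354 in WT villus, 394 in crypt and 224 in labelled-DKO villus. The authors' deposited tables gave -0.16 ± 0.18 for villus over crypt (adjusted p 0.522), with a 95% interval of -0.50 to 0.19. Between genotypes the deposited table gave 0.66 ± 0.18 (adjusted p 6.49e-04). Labelled-DKO villus held 63.4% of the WT villus signal (49.9 to 80.5). Since Mlxipl has 2 promoters, 1 of them with a CAAAGNNCA match, the value does not tell which start carried the difference.

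Of 12 genes listed as ChREBP partners and targets 5 were tested. Between genotypes 2 were called higher in WT and 3 in labelled-DKO villus, against 22.4% and 29.5% of all genes. For villus over crypt 2 were called higher and none lower, against 18.6% and 18.8% of all genes. Mlx, the partner gene, and Pklr, the gene of the liver-type pyruvate kinase, were higher in WT villus, at 1.06 ± 0.12 and 1.10 ± 0.15 in the authors' deposited table. Txnip and Arrdc4, which code for arrestin-like proteins that restrain glucose uptake, and Elovl6, a fatty acid elongase gene, were higher in labelled-DKO villus. Their deposited table values were -1.59 ± 0.23 for Txnip, -1.02 ± 0.16 for Arrdc4 and -1.54 ± 0.21 for Elovl6, with adjusted p of 1.02e-10, 1.00e-09 and 1.20e-12. Between villus and crypt these 3 genes were not called, with adjusted p of 0.0931, 0.456 and 0.478 in the deposited table, whereas Mlx (0.64 ± 0.12) and Pklr (0.82 ± 0.15) were higher in villus. Windows of Txnip overlap those of Gm15441, so reads of the pair cannot be told apart.

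**Figure D3:**
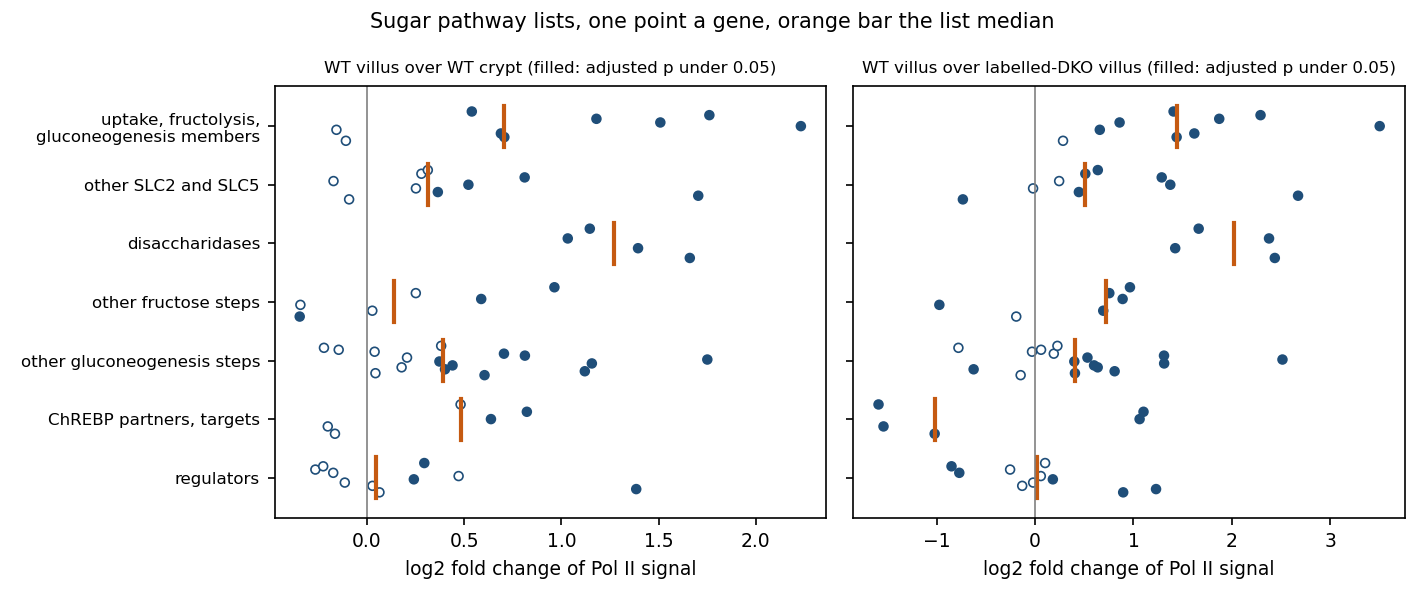
Log2 fold changes of Pol II signal for WT villus over WT crypt (left) and WT villus over labelled-DKO villus (right) in the 9 genes and 6 further lists of the sugar pathways; each point is a gene, filled where the adjusted p is under 0.05, and the orange bar is the list median. On the right the 4 disaccharidase genes lie between 1.42 and 2.44, and the ChREBP list is split between 2 genes above 0 (1.06 and 1.10) and 3 below 0 (-1.59 to -1.02).

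Counted together, the authors' deposited table of villus over crypt called 7 of the 9 genes higher and none lower, against a background of 18.6% of all genes called higher and 18.8% called lower. The deposited table of WT over labelled-DKO villus called 8 of the 9 higher in WT and none lower, against 22.4% and 29.5% of all genes. An adjusted p under 0.01 left both counts as they were, against 14.6% and 18.8% of all genes, and other stricter rules left fewer. In the test against changes of up to 0.5, in which a change must exceed that size, villus exceeded crypt at 4 of the 9 and WT exceeded labelled-DKO villus at 6, against 3.45% and 7.53% of all genes. With an estimate beyond 1 required, the numbers were again 4 and 6, against 3.52% and 6.53%. With a Bonferroni adjustment they were 6 and 6, against 8.46% and 12.4%. After centring, 9 of the 9 were called higher in WT, against 26.6% of all genes. Their median change was 0.71 in the first comparison, ranging from -0.16 to 2.23, and 1.44 in the second, with a range of 0.28 to 3.50. The medians of all genes were -0.04 and -0.08. The 2 comparisons share the WT villus libraries, and the choice of genes was made with earlier results known, so these counts describe the 9 genes.

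**Figure D4:**
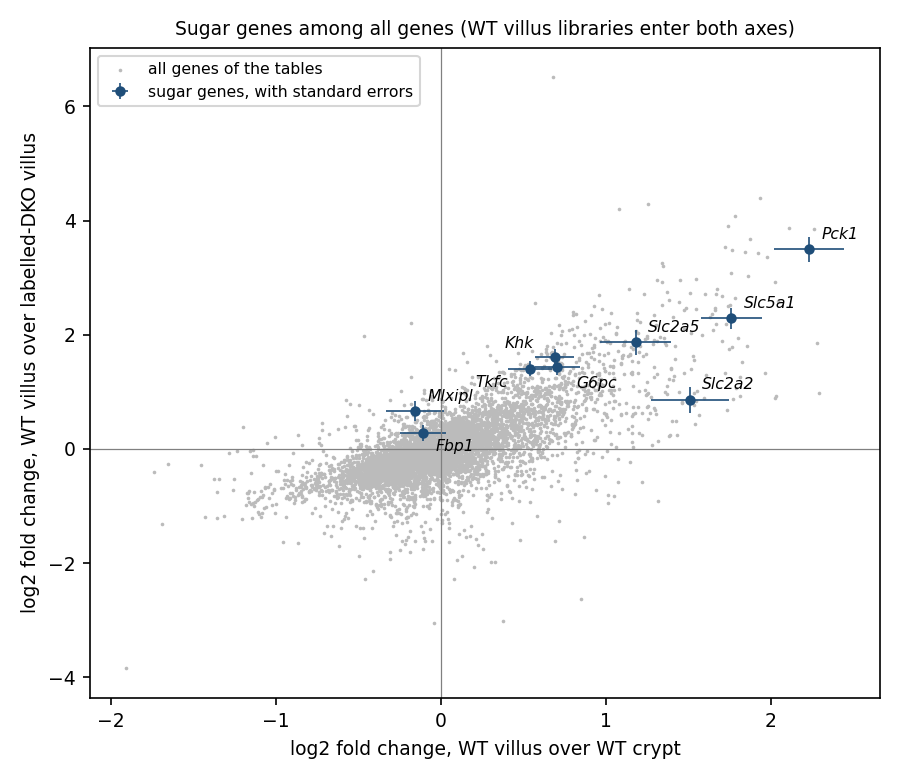
Log2 fold change of WT villus over labelled-DKO villus (vertical) against WT villus over WT crypt (horizontal) for all 6429 genes in grey and the 9 genes in blue, with standard errors as bars; WT villus libraries enter both axes. Khk, G6pc and Tkfc lie close together (0.54 to 0.71 across, 1.41 to 1.62 up), Slc2a2 lies to the right at 1.51 and 0.86, and Fbp1 and Mlxipl lie left of 0.

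Labelled-DKO villus was then compared with WT crypt, to see whether the signal in labelled-DKO villus lay at, above or below the crypt level. This comparison has no table of its own and is the first deposited change minus the second, with the largest standard error that independent libraries allow. Of the 9 genes 5 were called lower in labelled-DKO villus than in crypt and none higher, against 7.19% and 6.41% of all genes. Among the 13 enterocyte markers tested, 6 were called lower and 1 higher. Their median change was -0.80, against -0.73 for the 9 genes. Of the 9 other SLC2 and SLC5 genes tested, 3 were called lower and none higher. Khk was at -0.93 ± 0.17 (adjusted p 3.17e-06, Wald test with Benjamini-Hochberg adjustment over all genes), and Tkfc was at -0.87 ± 0.19 (adjusted p 1.32e-04). Pck1 was at -1.27 ± 0.30 (adjusted p 6.22e-04), G6pc at -0.73 ± 0.20 (adjusted p 0.00334) and Mlxipl at -0.81 ± 0.25 (adjusted p 0.0117). The carrier genes were not called, with Slc5a1 at -0.53 ± 0.26 (adjusted p 0.183), Slc2a5 at -0.69 ± 0.31 (adjusted p 0.123) and Slc2a2 at 0.65 ± 0.33 (adjusted p 0.202), and neither was Fbp1, at -0.39 ± 0.19 (adjusted p 0.183). With a standard error rebuilt from a shared dispersion, 8 genes were called lower and Slc2a2 was called higher, against 13.6% and 15.2% of all genes. Against changes of up to 0.5 on the log2 scale none of the 9 was called lower or higher, with 0.902% of all genes called lower. Pck1 alone was lower by more than 1, against 1.66% of all genes, and Khk and Tkfc passed a Bonferroni adjustment, against 2.36%.

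The errors were larger than counting noise alone would give. At Slc5a1 counting noise over 3 libraries a group would give a standard error of 0.02 for villus over crypt, against 0.18 deposited, and at Slc2a2 0.05 against 0.23. At Khk and G6pc the values were closer, at 0.09 against 0.12 and 0.11 against 0.14. By size, the deposited error of Slc2a2 between genotypes stood above that of 90.2% of all genes and that of Khk above 40.2%. The tables do not state how deeply any library was sequenced.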

How the data were processed

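Pol II ChIP-seq and input libraries of mouse duodenal epithelium were used as the authors deposited them. Per the submitters' processing notes, the build was mm9 and the tools were FastQC 0.11.3, Bowtie2 2.2.6, SAMtools 0.1.19, Picard, deepTools 2.4.2, featureCounts and DESeq2 1.36.0. Per the file headers, window counts were made with featureCounts 2.0.3 on read pairs of mapping quality 30 or more, with duplicates ignored, a pair assigned to every window it overlapped and no strand option. The 18 columns of counts per library carry no names and were used in no step; window positions were used. The planned edgeR quasi-likelihood tests on counts were not run for that reason.

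All Pol II results come from 2 tables that the authors deposited in DESeq2 results format. Each holds, per the file headers, a mean signal over all libraries, a log2 fold change and its standard error, a Wald score, and raw and adjusted p-values for 6429 genes. The authors' gene filter, counted window and size factors are not stated in the tables, nor is shrinkage of fold changes. The deposited adjusted p-values equalled a Benjamini-Hochberg adjustment over all genes to within 3.76e-07. Table signs were read from the tables' names. As a check, the gap in squared standard error from one table to the other was regressed on the difference of the inverse rebuilt means of crypt and labelled-DKO villus, which explained 68.7% of its squares with both signs as named, 40.4% with the first reversed and nothing with the second reversed.

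Group levels, the comparison of labelled-DKO villus with crypt and all alternatives were computed in Python 3.11.15 (numpy 2.4.6, scipy 1.17.1, pandas 2.3.3) and tested on simulated data. Windows were assigned to genes through RefSeq accessions of GRCm38.p6, used for names only, and 97.2% matched. Every one of the 9 genes was named, and other pathway genes came from lists whose tested members could all be named; genes of like pattern were the 5 nearest, among genes with at least the median mean signal, in the pair of log2 fold changes. A few listed genes are not reported here and enter no list count. The genes and lists were chosen with earlier results of these data known.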

Additional observations from a re-analysis of the deposited data

How the results depend on the processing

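The count of genes called higher in villus than crypt, 7 of 9, was 4 in the test against changes up to 0.5 and 4 with a change beyond 1 required, since Khk, Tkfc and G6pc lie under 1. Between genotypes the count called higher in WT, 8 of 9, ran from 6 to 9. For labelled-DKO villus below crypt, 5 of 9, the count was 0 against changes up to 0.5, 1 (Pck1) with a change beyond 1 and 2 (Khk and Tkfc) with a Bonferroni adjustment. With the standard error from a shared dispersion it was 8, and 1 gene (Slc2a2) was called higher. An adjusted p under 0.01, centring, a mean signal of at least 100 (which leaves out G6pc) and genes without overlapping windows kept each count within 1.5 times. Of 195 recomputed values of single genes among the 9, 164 kept their call, 26 no longer passed, 5 newly passed and 0 changed sign. Only centring alters the change itself, so under every other rule the sign could not change. Of 1040 values for other pathway genes, 4 changed sign, all on centring and none called: between genotypes Slc5a10 to 0.061, Foxo1 to 0.0617 and Pcx to 0.0503, and Tpi1 to -0.0026 for labelled-DKO villus over crypt. Over all genes, centring moved the split of higher and lower calls for villus over crypt from 1193 and 1210 to 1356 and 951, and between genotypes (WT higher, WT lower) from 1443 and 1895 to 1710 and 1422. If the deposited mean covered WT libraries only, rebuilt levels would be 0.715 to 0.939 times those given, with the order of the groups unchanged by construction.

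No paired analysis was possible because values per library come only in count columns without names. That also kept leave-one-out fits, other size factors and count filters from being run, and no result was checked against the loss of 1 library. At Khk and G6pc counting noise alone, worked out from the rebuilt levels (0.12 and 0.13 between genotypes), was close to the deposited standard errors of 0.12 and 0.14. The part of sequencing depth in this was not tested.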

Other observations

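Of 15 genes listed as regulators of gluconeogenesis in liver, 10 were tested. In the authors' deposited table of villus over crypt 3 were called higher in villus and none lower, and between genotypes 3 were higher in WT and 2 lower. The counts between genotypes lie near the background of all genes, of which 22.4% were called higher in WT and 29.5% lower in WT. For villus over crypt the background was 18.6% higher and 18.8% lower, and the list was not tested against it. Creb3l3, a fasting-responsive transcription factor gene of liver and gut, was highest, with deposited table values of 1.39 ± 0.12 for villus over crypt and 1.23 ± 0.11 for WT over labelled-DKO villus. Between genotypes Cebpa was higher in WT in the deposited table, at 0.90 ± 0.24, and it was not called between villus and crypt (adjusted p 0.861). The nuclear receptor genes Ppara and Nr1h4 were higher in labelled-DKO villus, at -0.85 ± 0.10 and -0.77 ± 0.11 in the deposited table. Ppargc1a, the gene of the coactivator PGC-1α, was at 0.10 ± 0.12 between genotypes (adjusted p 0.471) and Foxo1 at -0.02 ± 0.07 (adjusted p 0.844) in the deposited table.

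The 5 genes nearest to the median pair of changes of the 9 sugar genes (0.71 and 1.44) were Asah2, Myh14, Mroh6, Ptprh and Fam98c, at distances of 0.03 to 0.06 on the log2 scale over 2 comparisons that share the WT villus libraries. By the same measure the nearest gene to Slc2a2 was Anpep, with deposited table values of 1.55 ± 0.30 and 0.84 ± 0.30, and the nearest to Slc2a5 was Pdzk1, at 1.12 ± 0.09 and 1.88 ± 0.09 in the deposited tables. The nearest to Khk was Enpep and the nearest to Tkfc was Slc5a11, at distances of 0.03 and 0.04. For Slc5a1 it was the MHC class I gene H2-Q1 at 0.13, and for G6pc it was Asah2 at 0.03. For Fbp1 it was the lamin gene Lmnb2 at 0.01, and for Mlxipl the histone gene H2bc6 at 0.04. The nearest to Pck1, among genes with at least the median mean signal, was Guca2b at 0.29. Its deposited table values were 1.98 ± 0.14 and 3.36 ± 0.16, against 2.23 ± 0.21 and 3.50 ± 0.22 at Pck1.

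In the deposited window files, the gene body window of Tkfc and of Fbp1, the 2 of the 9 genes on the minus strand, contained the whole promoter window. The same held for 21190 of 21190 minus-strand transcripts with both windows and for 0 of 19858 on the plus strand, where 48 bases separated the windows of the other 7 sugar genes. Whether the deposited tables of comparisons rest on these windows is not stated.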
